A study of Homo sapiens with 6 samples.

Results

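The genes described here make, sense and move sterols: 18 enzymes of the route from acetyl-CoA to cholesterol, 6 genes that control the transcription factor SREBP2, 2 of its other targets, 5 genes of the LXR pathway and of cholesterol efflux, and 2 genes of cholesterol export from the lysosome. They were chosen by name as 33 rows of a count table with 60107 gene IDs, and all 33 passed the filter on low counts that left 22613 genes for testing. The set does not hold every gene of the pathway. The cells were H9 human embryonic stem cells, an established line, taken on day 9 of a protocol that steers them toward nephron progenitors, the precursors of the filtering units of the kidney. In 3 libraries the medium was complete and held glutamine, an amino acid that feeds carbon and nitrogen into many pathways. In the other 3 glutamine had been left out of the medium from the start of differentiation. Both groups had the same line and the same protocol, so each comparison rests on 1 cell line. The labels do not say whether the 3 libraries of a group came from separate cultures, and p-values then measure only the spread between these samples, which may be technical.

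Cholesterol is built in the cytosol and the endoplasmic reticulum, first as small isoprenoid units and then as squalene, which is closed into the ring compound lanosterol and trimmed to cholesterol. When membranes hold little cholesterol, the escort protein SCAP carries SREBP2 to the Golgi, where a pair of proteases release the part that enters the nucleus and switches on the enzymes of synthesis. INSIG proteins hold SCAP back when sterols are plentiful. Oxidised sterols activate the nuclear receptors LXR alpha and LXR beta, which switch on pumps that move cholesterol out of the cell.

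The libraries held 78220507 to 84746566 counts. They did not separate cleanly by group: across genes, the log2 CPM of replicate 1 with glutamine correlated at 0.9758 and 0.9762 (Pearson) with its partners, and at 0.9908 to 0.9927 with the 3 libraries without glutamine. Its value is therefore shown for each of the 33 genes. Of 11 nephron progenitor and intermediate mesoderm markers all were detected in every library, and their summed level was 984 to 1664 CPM (counts per 1000000, scaled by TMM) with glutamine and 1537 to 2064 CPM without. The 11 markers went both ways, 6 with a log2 fold change above 0 (without minus with glutamine) and 5 below. SIX2, a defining marker of nephron progenitors, was at 6.57, 34.8 and 27.8 CPM with glutamine, by replicate, and at 9.70, 7.80 and 7.27 CPM without. LHX1, with the highest log2 fold change of the 11, was at 71.8, 4.51 and 4.66 CPM with glutamine and at 137, 114 and 89.5 CPM without. Among the 4 pluripotency markers NANOG was at 0 or 0.01 CPM in every library and POU5F1 at 0.15 CPM or less, while DPPA4 made up nearly all of the summed 113 to 269 CPM. The 7 endoderm and hepatic markers summed to 1.79 to 2.39 CPM and the 4 macrophage markers to 1.51 to 2.47 CPM. The neural markers summed to 29.3 to 69.2 CPM with glutamine and 54.9 to 80.4 CPM without, most of it DCX, and the somite markers to 62.8 to 207 CPM with and 66.7 to 85.7 CPM without. In bulk RNA, fewer cells of a type and less RNA per cell cannot be told apart.

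SREBP2 and LXR act through short elements near their targets, so 6 promoters are printed to show which letters of these elements they hold. RefSeq windows on GRCh38.p14, from 250 bases before to 50 bases after an annotated start, were matched by symbol to 29 of the 33 genes, with ACAT2, FDFT1, SQLE and ABCG1 unmatched. The letters of the sterol response element, TCACNCCAC on either strand, stood in the window of 1 of these 29 genes, against 1.44% of the 12927 tested genes with a window. That gene was SREBF2, which encodes SREBP2 itself, at chr22:41832855-41833154 on the plus strand. The match lies at -133 to -125 from the start. An A precedes it, and that longer form without a free base (A before TCACCCCAC) stood in 8 of the 12927 genes. CCAAT, the box bound by the SREBP partner NF-Y, stood in a window of 13 of 15 synthesis enzymes and of 6 of 14 other members, against 42.2% of tested genes. Counted by window, it was in 15 of 20 windows of the synthesis enzymes and in 34% of the windows of tested genes. GGGCGG, the GC box bound by SP1, was in 14 of the 15 synthesis enzymes and in 72.6% of tested genes. A match in letters is a description of the window, and genes without one may hold other forms or sites elsewhere. In the first 5 sequences below capitals mark TCACNCCAC or CCAAT in either orientation, the latter reading ATTGG on the other strand. They are followed by ABCA1, the cholesterol pump with the lowest log2 fold change of the set. SREBF2 was printed by rule, and the others were picked after their values were seen, as members with a window and high log2 fold changes, the sterol carrier gene STARD4 and ABCA1.
SREBF2: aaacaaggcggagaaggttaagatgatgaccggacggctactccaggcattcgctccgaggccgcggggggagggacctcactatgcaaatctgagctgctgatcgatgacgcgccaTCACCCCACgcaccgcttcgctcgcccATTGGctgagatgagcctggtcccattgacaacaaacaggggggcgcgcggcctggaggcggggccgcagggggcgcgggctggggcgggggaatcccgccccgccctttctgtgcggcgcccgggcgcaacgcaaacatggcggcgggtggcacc
MVD: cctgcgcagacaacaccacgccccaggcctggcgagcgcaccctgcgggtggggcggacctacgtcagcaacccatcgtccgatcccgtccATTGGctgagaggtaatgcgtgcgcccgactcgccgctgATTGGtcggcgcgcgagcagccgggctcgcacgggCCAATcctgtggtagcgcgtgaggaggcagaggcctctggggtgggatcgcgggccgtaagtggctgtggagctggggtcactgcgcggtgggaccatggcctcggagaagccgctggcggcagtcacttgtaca
INSIG1: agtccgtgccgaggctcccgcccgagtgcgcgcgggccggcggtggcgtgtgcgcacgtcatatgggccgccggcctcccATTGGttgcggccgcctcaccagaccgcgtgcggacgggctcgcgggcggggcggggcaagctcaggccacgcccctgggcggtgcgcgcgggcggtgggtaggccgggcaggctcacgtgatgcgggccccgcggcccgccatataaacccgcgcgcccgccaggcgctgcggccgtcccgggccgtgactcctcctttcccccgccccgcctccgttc
DHCR7: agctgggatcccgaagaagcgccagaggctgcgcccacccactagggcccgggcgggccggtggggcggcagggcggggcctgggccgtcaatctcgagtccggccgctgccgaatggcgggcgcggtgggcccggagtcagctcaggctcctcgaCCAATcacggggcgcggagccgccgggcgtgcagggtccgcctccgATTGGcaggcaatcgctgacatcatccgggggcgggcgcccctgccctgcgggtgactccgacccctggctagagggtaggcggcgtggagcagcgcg
STARD4: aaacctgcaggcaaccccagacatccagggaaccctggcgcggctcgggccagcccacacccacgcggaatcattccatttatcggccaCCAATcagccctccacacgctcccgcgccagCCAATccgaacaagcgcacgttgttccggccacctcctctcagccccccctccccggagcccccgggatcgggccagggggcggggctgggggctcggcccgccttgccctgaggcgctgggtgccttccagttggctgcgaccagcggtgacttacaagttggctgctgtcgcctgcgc
ABCA1: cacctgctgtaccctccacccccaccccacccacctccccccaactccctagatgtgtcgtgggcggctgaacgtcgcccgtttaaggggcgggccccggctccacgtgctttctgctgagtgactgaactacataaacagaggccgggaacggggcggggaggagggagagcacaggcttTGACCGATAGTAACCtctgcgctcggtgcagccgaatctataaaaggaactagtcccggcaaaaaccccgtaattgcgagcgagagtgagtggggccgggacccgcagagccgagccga

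Those windows are chr16:88663042-88663341 on the minus strand for MVD, chr7:155297628-155297927 on the plus strand for INSIG1, chr11:71448344-71448643 on the minus strand for DHCR7, chr5:111512486-111512785 on the minus strand for STARD4 and chr9:104928106-104928405 on the minus strand for ABCA1. LXR with its partner RXR binds a pair of direct repeats. The perfect form, AGGTCA repeated after 4 free bases, stood in no window of the 29 genes and in 2 of the 12927 tested genes. A looser form, GGTNA repeated after 5 free bases, was added after the data were seen. It stood in 2 of the 29 genes, HMGCS1 and ABCA1, and in 0.65% of tested genes. In ABCA1, where capitals mark it, it lies at -69 to -55 on the strand opposite to the one printed and reads GGTTACTATCGGTCA.

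Cells kept without glutamine were compared with those given it, to see which of these transcripts differ when it is withheld. All 18 synthesis enzymes had a positive log2 fold change, with a median of 0.64 and a range from 0.14 to 1.10, whereas 50.2% of all 22613 genes were above 0 and their median was 0.00. The cholesterol pump ABCA1 was at 0.32 times its level with glutamine. None of the 33 reached an adjusted p (Benjamini-Hochberg) under 0.05 in edgeR's quasi-likelihood test, a threshold that 0.00442% of all genes passed. At an unadjusted p under 0.05 the same test gave 20 members higher and 3 lower without glutamine, against 14.7% and 15% of all genes. At an adjusted p under 0.1 it gave 16 members higher and 2 lower, where 7.3% and 7.23% of all genes passed, and 14 of the 16 were synthesis enzymes. The groups did not overlap for 21 members that were higher and 2 that were lower, against 17.3% and 16.9% of all genes. DESeq2 called 17 members higher and 2 lower at an adjusted p under 0.05, 15 of the higher ones being synthesis enzymes, where it called 7.75% and 6.63% of the genes it adjusted over. Without replicate 1 with glutamine, edgeR called 20 members higher and 3 lower at an adjusted p under 0.05, 16 of the higher ones being synthesis enzymes, against 22.3% and 19% of all genes. Limma-voom called none. Since the members were chosen with earlier results of these data known, no test was made over the set.

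**Figure D1:**
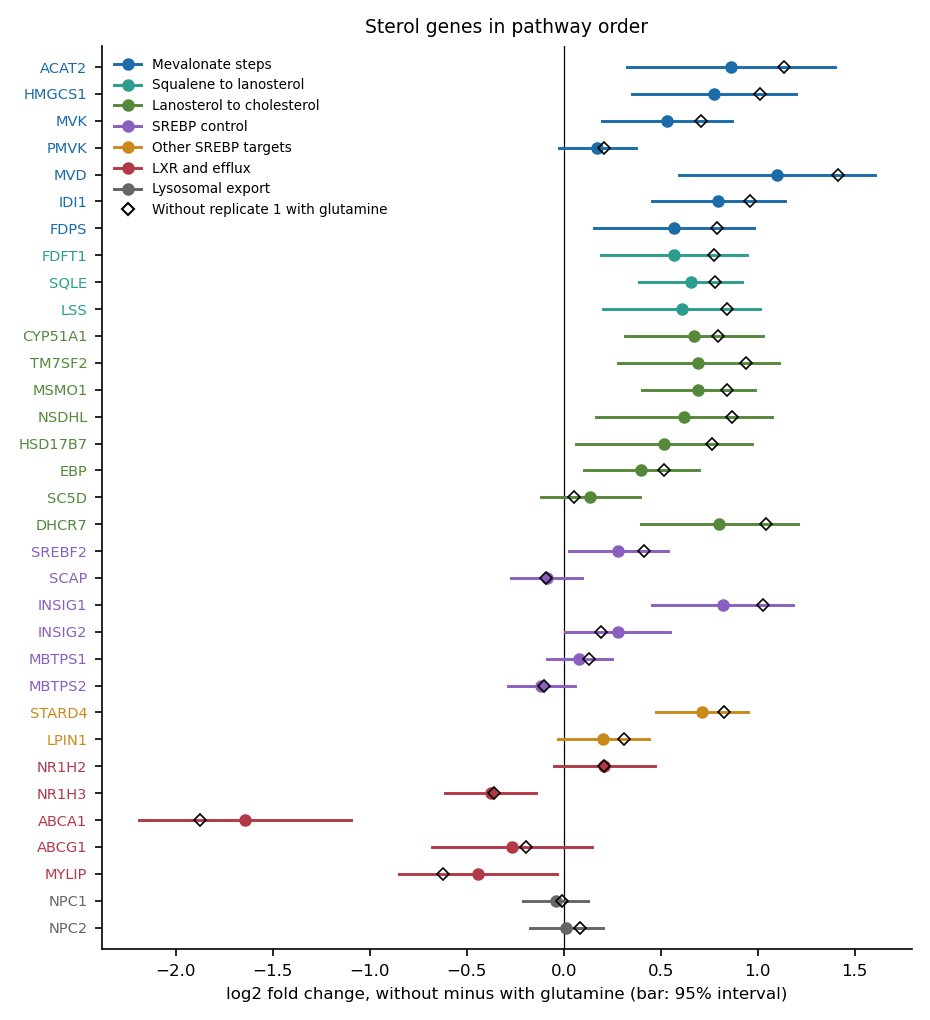
Log2 fold change of each of the 33 genes, without minus with glutamine, in pathway order from top to bottom; filled points are edgeR estimates from all 6 libraries with 95% intervals, open diamonds the estimates without replicate 1 with glutamine, and colours the gene groups. The 18 synthesis enzymes all lie right of 0, and ABCA1 lies farthest left at -1.64.

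Genes of the cell cycle lay in the same direction as the synthesis enzymes. Of 12 listed, all had a log2 fold change above 0, as had 50.2% of all genes, with a median of 0.50. For 10 of them the groups did not overlap, against 17.3% of all genes that were higher without overlap. They summed to 2589, 1929 and 2086 CPM with glutamine, by replicate, and to 3137, 2927 and 3042 CPM without, so replicate 1 with glutamine lay between the others. The part of cell cycle genes, and of the nephron progenitor and somite markers given above, in the difference of the sterol genes was not tested.

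The mevalonate steps turn acetyl-CoA into farnesyl pyrophosphate. All 7 enzymes were higher in every library without glutamine than in every library with it, as were 17.3% of all genes. ACAT2, the thiolase that joins the first acetyl units, was at 113, 66.5 and 73.5 CPM in the libraries with glutamine (here and below in the order of replicates 1, 2 and 3, n = 3 a group) and at 120, 168 and 172 CPM without. The lowest library without glutamine stood just above replicate 1 with glutamine, and the other pairs were far apart. Its log2 fold change was 0.86 ± 0.23 (SE) at an edgeR adjusted p of 0.0806. In GENCODE 29, 52.3% of its exonic bases lie under exons of genes on the opposite strand, TCP1 and SOD2 among them, and how the counting used strand is not given in the sources used here. TCP1 and SOD2 had log2 fold changes of 0.17 and 0.13.

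HMGCS1, which adds a further acetyl unit to make HMG-CoA, was at 494, 322 and 323 CPM with glutamine and at 575, 679 and 694 CPM without. It had the highest level per length of the set, and replicate 1 with glutamine lay between the other libraries of its group and those without. The log2 fold change was 0.77 ± 0.18 (SE) at an edgeR adjusted p of 0.0721. MVK, mevalonate kinase, was at 24.4, 17.7 and 17.6 CPM with glutamine and at 26.6, 29.9 and 29.7 CPM without, a log2 fold change of 0.53 ± 0.14 (SE) at an edgeR adjusted p of 0.0819. PMVK, which adds the next phosphate, differed least among these enzymes. It was at 18.9, 17.1 and 18.2 CPM with glutamine and at 19.8, 21.5 and 19.8 CPM without, and its log2 fold change of 0.17 had a 95% interval from -0.03 to 0.37 (edgeR adjusted p 0.215).

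MVD, the decarboxylase that makes the isoprene unit, had the highest log2 fold change of the set. It was at 30.3, 17.6 and 17.7 CPM with glutamine and at 43.9, 50.3 and 46.3 CPM without. The group means were 21.9 ± 7.30 and 46.9 ± 3.24 CPM (SD, n = 3), which gave a log2 fold change of 1.10 ± 0.21 (SE; 95% interval 0.59 to 1.61) at an edgeR adjusted p of 0.0682. PMVK and MVD catalyse neighbouring steps, and their intervals did not overlap, but the difference between them was not tested. IDI1, which converts the isoprene unit to its reactive isomer, was at 141, 98.8 and 111 CPM with glutamine and at 180, 217 and 213 CPM without. All libraries without glutamine stood clear of those with it, and the log2 fold change was 0.80 ± 0.14 (SE) at an edgeR adjusted p of 0.068. FDPS, which joins these units into farnesyl pyrophosphate, the branch point toward sterols and prenylated proteins, was at 87.5, 56.1 and 61.2 CPM with it and at 88.5, 109 and 106 CPM without. Replicate 1 of each group nearly coincided, and the log2 fold change was 0.57 ± 0.18 (SE) at an edgeR adjusted p of 0.0982.

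**Figure D2:**
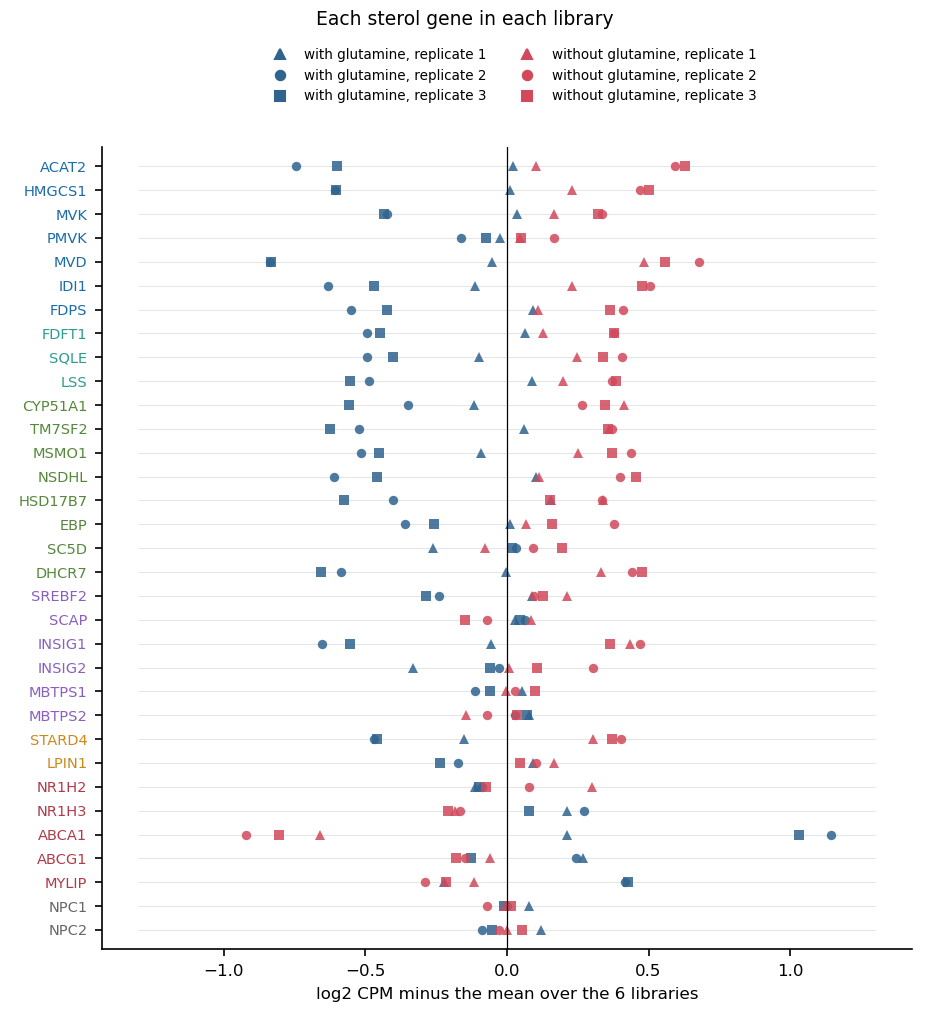
Log2 CPM of each gene in each of the 6 libraries, minus the gene's mean over all 6, with blue for glutamine present, red for glutamine absent and the marker shape for the replicate. For most synthesis enzymes the blue circle and square lie left, the red markers right and the blue triangle, replicate 1 with glutamine, between them; ABCA1 has the reverse order.

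The next 3 enzymes commit the pathway to sterols. FDFT1, squalene synthase, was at 376, 255 and 264 CPM with glutamine and at 393, 467 and 467 CPM without, a log2 fold change of 0.57 ± 0.16 (SE) at an edgeR adjusted p of 0.0857. SQLE, squalene epoxidase, a slow and tightly controlled step, was at 207, 158 and 168 CPM with it and at 263, 294 and 281 CPM without. The SD was 26.0 CPM with glutamine and 15.7 CPM without, and the log2 fold change was 0.65 ± 0.11 (SE) at an edgeR adjusted p of 0.068. LSS, which closes the rings to lanosterol, was at 126, 84.8 and 81.0 CPM with it and at 136, 154 and 155 CPM without, a log2 fold change of 0.61 ± 0.17 (SE) at an edgeR adjusted p of 0.0857. All 3 were higher without overlap between groups, against 17.3% of all genes, and their log2 fold changes lay between 0.57 and 0.65.

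From lanosterol to cholesterol 8 enzymes were followed, and 6 of them were higher without overlap between groups, against 17.3% of all genes. TM7SF2, a sterol reductase of the endoplasmic reticulum, was at 29.2, 19.5 and 18.1 CPM with glutamine and at 35.9, 36.2 and 35.9 CPM without, a log2 fold change of 0.69 ± 0.18 (SE) at an edgeR adjusted p of 0.0778. MSMO1, an oxygenase that acts in the removal of methyl groups, was at 117, 87.5 and 91.3 CPM with it and at 149, 169 and 161 CPM without. Its log2 fold change was 0.69 ± 0.12 (SE) at an edgeR adjusted p of 0.068. Both genes had all libraries without glutamine above replicate 1 with it. NSDHL, the dehydrogenase that follows, was at 48.2, 29.4 and 32.6 CPM with it and at 48.6, 59.3 and 61.5 CPM without, so its groups were separated by less than 1 CPM. Its log2 fold change was 0.62 ± 0.19 (SE) at an edgeR adjusted p of 0.0998.

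DHCR7, the reductase of the closing step to cholesterol, was at 84.9, 56.7 and 54.0 CPM with glutamine and at 107, 115 and 119 CPM without. It had the highest log2 fold change of these 8 enzymes, 0.80 ± 0.17 (SE) at an edgeR adjusted p of 0.0706. EBP, the sterol isomerase, was at 37.0, 28.6 and 30.7 CPM with it and at 38.5, 47.7 and 41.0 CPM without, a log2 fold change of 0.40 ± 0.13 (SE) at an edgeR adjusted p of 0.102. HSD17B7, the ketosterol reductase, was at 11.2, 7.58 and 6.73 CPM with it and at 12.7, 12.6 and 11.1 CPM without, and the groups overlapped by replicate 1 with glutamine. Its log2 fold change was 0.52 ± 0.19 (SE) at an edgeR adjusted p of 0.135.

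SC5D, the desaturase that acts just before DHCR7, differed little. It was at 89.7, 110 and 109 CPM with glutamine and at 102, 114 and 123 CPM without, with overlapping groups. The log2 fold change was 0.14, with a 95% interval from -0.12 to 0.39 (edgeR adjusted p 0.414). That interval ended just below that of DHCR7, 0.40 to 1.21, and the difference between these enzymes was not tested. SC5D was also the 1 synthesis enzyme for which replicate 1 with glutamine was the lowest of the 6 libraries. CYP51A1, the lanosterol demethylase, was counted at 3.28, 2.79 and 2.42 CPM with glutamine and at 4.73, 4.28 and 4.52 CPM without, from 190 to 407 counts a library. In GENCODE 29, 79.4% of its exonic bases lie under exons of other genes on the same strand, so the level of this gene is uncertain. Its log2 fold change was 0.67 ± 0.15 (SE) at an edgeR adjusted p of 0.0706.

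Among the 6 genes that control SREBP2, INSIG1 had the highest log2 fold change. INSIG1, which retains SCAP in the endoplasmic reticulum and is itself a known SREBP target, was at 91.1, 60.3 and 64.5 CPM with glutamine and at 128, 131 and 122 CPM without. No libraries overlapped, and its log2 fold change was 0.82 ± 0.15 (SE; 95% interval 0.46 to 1.18) at an edgeR adjusted p of 0.0682. INSIG2, its paralog, known to be transcribed without need of SREBP, was at 34.7, 42.8 and 41.8 CPM with it and at 43.9, 53.9 and 47.0 CPM without. The groups did not overlap, and the log2 fold change was 0.28 (95% interval 0.01 to 0.55, edgeR adjusted p 0.163). The intervals of the paralogs overlapped, and the difference between them was not tested.

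SREBF2, which encodes SREBP2 and holds the sterol element letters printed above, was at 325, 258 and 250 CPM with glutamine and at 353, 326 and 333 CPM without. The groups were separated by less than 2 CPM, since replicate 1 with glutamine lay next to the libraries without. The log2 fold change was 0.28 ± 0.11 (SE) at an edgeR adjusted p of 0.144. SCAP, the sterol-sensing escort, was at 111, 114 and 112 CPM with it and at 115, 104 and 98.1 CPM without, with overlapping groups and a log2 fold change of -0.09 (95% interval -0.27 to 0.10, edgeR adjusted p 0.467). The proteases of the Golgi also overlapped between groups: MBTPS1 was at 160, 143 and 148 CPM with glutamine and at 154, 157 and 166 CPM without, a log2 fold change of 0.08 (95% interval -0.09 to 0.25). MBTPS2 was at 61.0, 59.0 and 60.7 CPM with glutamine and at 52.3, 55.1 and 59.3 CPM without, a log2 fold change of -0.12 (95% interval -0.29 to 0.06), and 13.4% of its exonic bases lie under exons of other genes on its strand. The 6 control genes had a median log2 fold change of 0.18. For SCAP, MBTPS1 and MBTPS2 the intervals leave room for differences of at most 0.29 on the log2 scale in either direction.

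STARD4 and LPIN1 are SREBP targets outside the synthesis route. STARD4, a soluble protein that carries sterols between membranes, was at 97.4, 78.1 and 78.7 CPM with glutamine and at 134, 143 and 140 CPM without. The groups did not overlap, and the SD was 11.0 CPM with glutamine, where replicate 1 was highest, and 4.78 CPM without. Its log2 fold change of 0.71 ± 0.10 (SE) at an edgeR adjusted p of 0.068 had the smallest unadjusted p of the 33 genes, 0.000179. ABCA1 was next to it at 0.000181 in the same test. In DESeq2 the adjusted p was 2.97e-06 for STARD4 and 6.21e-10 for ABCA1. LPIN1, a phosphatidate phosphatase of glycerolipid synthesis, was at 93.7, 78.0 and 74.7 CPM with it and at 98.6, 94.5 and 90.8 CPM without. These groups overlapped, with a log2 fold change of 0.20 (95% interval -0.03 to 0.44, edgeR adjusted p 0.211).

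On the side of efflux, ABCA1, which loads cholesterol and phospholipid onto lipid-poor apolipoproteins, was at 89.9, 172 and 158 CPM with glutamine and at 49.1, 41.0 and 44.4 CPM without. Every library without glutamine was below every library with it, and replicate 1 with glutamine lay between. The group means were 140 ± 43.9 and 44.8 ± 4.08 CPM (SD, n = 3). The log2 fold change was -1.64 ± 0.23 (SE; 95% interval -2.19 to -1.09) at an edgeR adjusted p of 0.068, the largest difference in size among the 33 genes. ABCG1, the pump that passes cholesterol to lipoprotein particles, had the lowest level per length of the set, at 1.82, 1.79 and 1.39 CPM with it and at 1.45, 1.37 and 1.34 CPM without. It had 105 to 148 counts a library, overlapping groups and a log2 fold change of -0.27 (95% interval -0.68 to 0.14, edgeR adjusted p 0.329). The intervals of the pumps did not overlap, but the difference between them was not tested.

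The receptors of the pathway ranked 26 to 31 of the 33 genes in level per length. NR1H3, which encodes LXR alpha and is known to be its own target in human cells, was at 9.99, 10.4 and 9.10 CPM with glutamine and at 7.59, 7.68 and 7.46 CPM without. The groups did not overlap, replicate 1 with glutamine lay within its own group, and the log2 fold change was -0.38 ± 0.10 (SE) at an edgeR adjusted p of 0.081. NR1H2, which encodes the broadly expressed LXR beta, was at 16.6, 16.9 and 16.8 CPM with it and at 22.1, 18.9 and 17.0 CPM without. These groups did not overlap either, yet the lowest library without glutamine was within 1 CPM of those with it, and the log2 fold change was 0.21 (95% interval -0.05 to 0.47, edgeR adjusted p 0.244). MYLIP, an LXR target whose product marks lipoprotein receptors for breakdown, was at 33.9, 52.7 and 53.1 CPM with it and at 36.4, 32.4 and 34.0 CPM without. Replicate 1 with glutamine lay among the libraries without. The log2 fold change was -0.44 ± 0.17 (SE) at an edgeR adjusted p of 0.146 with all libraries. Without replicate 1 with glutamine it was -0.62 (edgeR adjusted p 0.000161). That fit called 19% of all genes lower at an adjusted p under 0.05. The 5 genes of this group had a median of -0.38, with 4 below 0.

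NPC1 and NPC2, which hand cholesterol out of the lysosome, differed little. NPC1 was at 41.8, 39.6 and 39.3 CPM with glutamine and at 39.4, 37.7 and 40.0 CPM without, a log2 fold change of -0.04 (95% interval -0.21 to 0.12, edgeR adjusted p 0.709). NPC2 was at 58.8, 50.9 and 52.2 CPM with it and at 54.1, 53.1 and 56.2 CPM without, a log2 fold change of 0.01 (95% interval -0.18 to 0.20, edgeR adjusted p 0.922). Its sign reversed under upper quartile scaling and in some fits that left out 1 library. In both genes the groups overlapped.

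The balance of synthesis and efflux was taken within each library, as CPM summed over the 18 enzymes and over the pumps ABCA1 and ABCG1. These sums are not scaled for length and hold unequal numbers of genes. The size of their ratio therefore depends on the lists, and only its differences between libraries are described. The 18 synthesis enzymes summed to 2039, 1436 and 1479 CPM with glutamine, by replicate, and to 2344, 2750 and 2742 CPM without. ABCA1 and ABCG1 summed to 91.8, 173 and 160 CPM with and to 50.6, 42.4 and 45.7 CPM without, nearly all of it ABCA1. The ratio of these sums was 22.2, 8.28 and 9.25 with glutamine and 46.4, 64.9 and 59.9 without, with means of 13.2 ± 7.78 and 57.1 ± 9.61 (SD, n = 3). Neither sum overlapped between groups, so the lowest ratio without glutamine was necessarily above the highest with it. When each gene was centred on its mean over the 6 libraries, so that abundant genes did not dominate, the mean log2 CPM of the enzymes minus that of the pumps was -0.25, -1.18 and -0.92 with glutamine and 0.57, 0.92 and 0.85 without. Centring places such values on both sides of 0, so their sign shows only the order of the libraries. A ratio within a library does not depend on how libraries are scaled. Such a score over chosen genes has no p-value, and it shows unequal change, not which side moved.

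**Figure D3:**
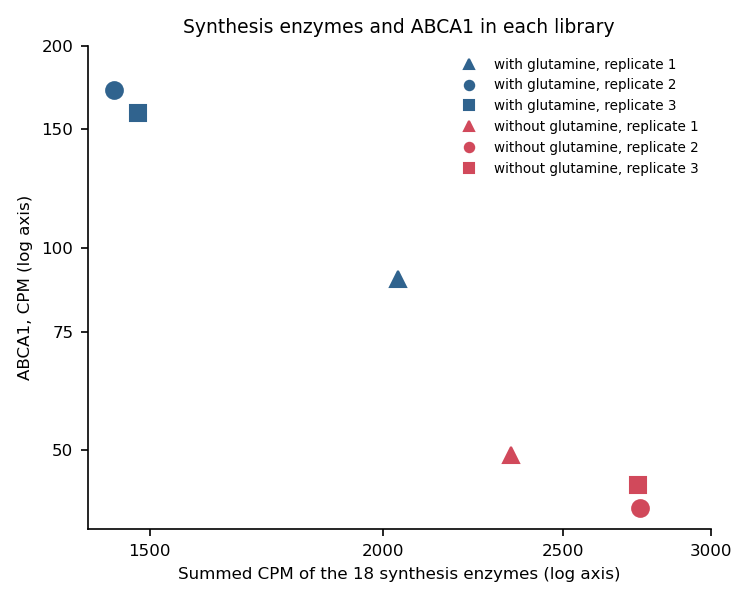
ABCA1 in CPM against the summed CPM of the 18 synthesis enzymes in each of the 6 libraries, both on log axes, blue with and red without glutamine. Replicates 2 and 3 with glutamine lie at upper left, the 3 libraries without glutamine at lower right and replicate 1 with glutamine between them at 2039 and 89.9 CPM.

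Replicate 1 with glutamine took a middle position in most of these genes. For all 16 synthesis enzymes whose groups did not overlap, it was above the other libraries of its group. That it was also below every library without glutamine follows from this choice of genes. It was above its partners in 73.5% of the 3909 genes of the whole table that were higher without overlap. It was nearer the mean without glutamine than the mean of its 2 partners for 12 of the 18 enzymes, against 62.2% of all genes. IDI1, SQLE, CYP51A1, MSMO1 and PMVK lay nearer their own group, as did SC5D. Without that library the median log2 fold change of the 18 enzymes was 0.82, with 0.05 for SC5D and 1.41 for MVD at the ends, and ABCA1 was at -1.88. What sets that library apart was not tested.

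Levels can be compared between genes only per length, here as CPM per kilobase of exon from GENCODE 29. HMGCS1 was highest in both groups, at 80.7 with glutamine and 138 without, followed by FDFT1 at 57.3 and 85.1 and SQLE at 41.3 and 64.9. SREBF2 ranked 4 with glutamine, at 36.8, and 6 without, at 44.7, behind MSMO1 at 55.2 and IDI1 at 46.8. MVK, at 3.07 and 4.44, and MVD, at 4.63 and 9.93, were the lowest of the mevalonate enzymes, and HSD17B7 was at 1.78 and 2.54. ABCA1 ranked 21 of the 33 with glutamine, at 12.3, and 28 without, at 3.95, next to NPC1 at 3.87. ABCG1 was last in both groups, at 0.272 and 0.226. Neighbours such as FDPS and NSDHL, both at 18.4 with glutamine, did not differ beyond their spread. The exonic length is that of all annotated transcripts joined, which lowers the value of genes with long rare exons.

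**Figure D4:**
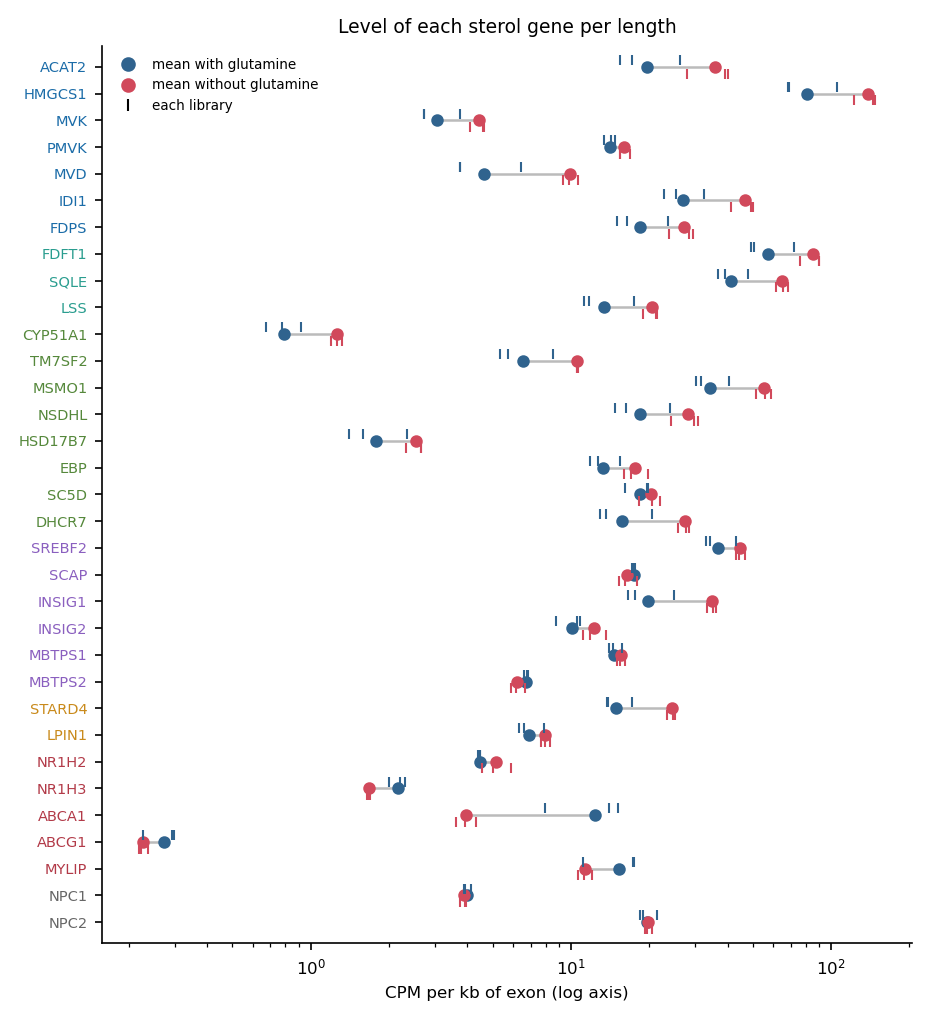
CPM per kilobase of exon for each gene on a log axis, with the group means as blue (with glutamine) and red (without) points, each library as a tick above (with) or below (without) and gene names coloured by gene group. HMGCS1 is highest at 80.7 and 138, ABCG1 lowest, and ABCA1 shows the widest gap between means on this axis, 12.3 against 3.95.

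Beyond these members, 49 further genes of sterol and isoprenoid metabolism were listed by function, and 47 were tested. None had an edgeR adjusted p under 0.05, 6 were higher and 6 lower at an unadjusted p under 0.05 (14.7% and 15% of all genes), and the groups did not overlap for 8 that were higher and 7 that were lower (17.3% and 16.9% of all genes). These counts are near the background. DESeq2 called 4 higher and 2 lower, against 7.75% and 6.63% of all genes it adjusted over. The median log2 fold change was -0.03. Of the 8 that were higher, 6 belonged to the 7 cofactor and alternative-enzyme genes, which had a median of 0.36 and 1 member lower without overlap. LBR, which shares the reductase step with TM7SF2, was at 253, 174 and 175 CPM with glutamine and at 301, 305 and 306 CPM without, a log2 fold change of 0.60 ± 0.15 (SE) at an edgeR adjusted p of 0.0759. CYB5B, a cytochrome b5 that passes electrons to oxidative enzymes, was at 142, 101 and 105 CPM with it and at 158, 181 and 187 CPM without, a log2 fold change of 0.60 ± 0.14 (SE) at an edgeR adjusted p of 0.0724. ERG28, a scaffold of the demethylating enzymes, was at 54.6, 45.5 and 47.0 CPM with glutamine and at 57.6, 66.3 and 69.9 CPM without, a log2 fold change of 0.40 ± 0.11 (SE) at an edgeR adjusted p of 0.0818.

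The side branch leads from farnesyl pyrophosphate to prenylated proteins, dolichol and ubiquinone. Its 11 genes had a median log2 fold change of -0.03 and a range from -0.24 to 0.16, and none had an unadjusted p under 0.05 in edgeR. The 11 tested genes of cholesterol ester storage and transport had a median of -0.06, with STARD5 lowest at -0.61 ± 0.25 (SE) at an edgeR adjusted p of 0.16. STARD5, a sterol carrier, was at 1.17, 1.05 and 1.39 CPM with glutamine and at 1.01, 0.778 and 0.560 CPM without. The 8 partners and further targets of LXR had a median of -0.08, from -0.84 to 0.19. MARCHF6, a ubiquitin ligase of the endoplasmic reticulum known to bring about the breakdown of squalene epoxidase, was at 523, 671 and 602 CPM with glutamine and at 459, 435 and 435 CPM without, a log2 fold change of -0.44 ± 0.10 (SE) at an edgeR adjusted p of 0.0717. The 4 tested genes of oxysterol and bile acid synthesis had a median of -0.05, and CYP27A1, a sterol hydroxylase whose products activate LXR, had a log2 fold change of -0.48 ± 0.16 (SE) at an edgeR adjusted p of 0.114. CYP27A1 was at 3.92, 4.48 and 4.31 CPM with glutamine and at 3.62, 2.91 and 2.57 CPM without.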

How the data were processed

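RNA was measured in 6 libraries, and groups and replicate numbers came from the sample titles. A stranded mRNA kit and single-end reads were used, per the labels. The authors deposited raw counts per Ensembl gene, and the submitters' processing notes name cutadapt, Trim Galore, FastQC, STAR 2.5.2b, DESeq2 and the build GRCh38. The counting program, its annotation, strand setting and handling of multiply aligned reads are not given in the sources used here, so genes with overlaps or near-identical copies are uncertain. The count columns are headed day 0 and day 9 although all samples are from day 9. The description of each sample names its heading, and every direction rests on that mapping. The deposited normalized table was not used.

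Symbols, positions and exon lengths came from GENCODE 29 on GRCh38, which matched 56531 of 60107 IDs, and unmatched IDs held 0.148% of counts. The tests on these counts ran in edgeR 4.0.16 under R 4.3.3: filterByExpr left 22613 genes with 99.95% of the counts, scaling was by TMM, and the quasi-likelihood F test used legacy = FALSE, with Benjamini-Hochberg adjustment over all genes and a threshold of 0.05. CPM are counts over the TMM-scaled library size. A standard error is the absolute log2 fold change over the square root of F, and 95% intervals use the fit's degrees of freedom. DESeq2 1.42.0 and limma 3.58.1 were alternatives, with other scalings, filters, a replicate block and leaving out each library. No 2 libraries were duplicates, since counts differed by at least 10.8 times the sampling noise (chi-square per degree of freedom). The test was run on simulated data. Promoter windows came from RefSeq, were searched on both strands by exact letters, and several windows of a gene were all used.

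The members and lists were chosen with earlier results of these data known. All 33 members are named. Of the other pathway genes the rule names those highest and lowest by log2 fold change, up to 3 each way, among genes without overlap between groups whose mean count reached 50 in the group where they were higher.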

Additional observations from a re-analysis of the deposited data

How the results depend on the processing

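No member was called under any other scaling or filter, the legacy setting or limma-voom, whereas DESeq2 called 19 members and 3065 genes, and leaving out 1 library gave 0 to 23 members and 0 to 9573 genes. The 23 and the 9573 came without replicate 1 with glutamine, and the cause was not tested; fewer libraries with a smaller spread entered that fit, with a common dispersion of 0.0083 against 0.0408. The count of 1 gene over the whole table was 2 with no filter and 0 under upper quartile scaling, library size only, the legacy setting and limma-voom. Without replicate 1 of the group without glutamine it was 17. The counts for the other pathway genes under each alternative were added after seeing the data: 6 with DESeq2 and 0 to 18 with 1 library left out, the 18 again without replicate 1 with glutamine. Across all 15 alternatives the median of the synthesis enzymes stayed between 0.539 and 0.818, that of the LXR and efflux genes between -0.422 and -0.342, that of the SREBP control genes between 0.13 and 0.186, and the mean log2 fold change of the enzymes minus that of the pumps between 1.38 and 1.84. Of 495 values for single members, 449 kept their sign and their call, 42 became called and 4 reversed. All reversals were in NPC2, at -0.032 with upper quartile scaling, and leaving out 1 library moved it between -0.035 and 0.083. Upper quartile factors moved the median of all genes to -0.04, and the share of higher genes among those with an adjusted p under 0.1 from 50.2% to 35.3%, with 12 synthesis enzymes among them in place of 14; library size only left 10 and limma-voom 15.

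The sample titles give replicate numbers but do not say whether same-numbered samples were paired, and no pairing was detected. After subtracting group means, same-numbered libraries correlated at -0.021, 0 and 0.028, and not every library correlated best with its own number. With so few libraries a group, these correlations cannot exclude pairing. With the replicate block 0 genes and 0 members were called, also at an adjusted p under 0.1. Counts were lowest for ABCG1 and CYP51A1, and 79.4% of the exonic bases of CYP51A1 lie under other genes on its strand.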
